A study of Homo sapiens and Mus musculus with 6 samples.

Results

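Promoter Capture Hi-C (CHi-C) was used to list the contacts of the promoters of *Gata2*, *Gata3*, *Gata4*, *Gata5*, *Gata6*, *Hand1*, *Hand2* and *Tal1*, 8 genes that encode transcription factors of early development. In this assay a Hi-C library, made by cutting crosslinked chromatin with *Hin*dIII and ligating fragments that lie close together, is enriched for fragments that carry promoters, the baits. CHiCAGO then scores each pair of a bait and a second fragment, called the other end, by how far its reads exceed a background that falls with distance. A call was taken for a gene when its symbol stood among those given for the bait or for the other end. In mESCs, 115 of 101841 listed calls carried one of the 8 genes, and in GM12878 56 of 92929 did. These were 99 and 54 distinct pairs of fragments, since a pair of baits can be listed once from each of its ends.

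The mESCs were of the J1 line, of the 129S4/SvJae strain, grown in 15% serum on irradiated embryonic fibroblasts, from which they were freed by passaging. GM12878 is an established human lymphoblastoid line, that is, B lymphocytes grown in culture, and was also kept in 15% serum. No genotype or treatment differed within either cell type, and both were fixed in 2% formaldehyde for 10 min. The authors merged 2 replicates of mESCs and 3 of GM12878 into a single list each, which leaves no spread between replicates, and no difference between the cell types was tested. Species and cell type also differ together and cannot be told apart. A single Hi-C library of mESCs, without capture, served for comparison. The assay measures contacts and not RNA, so neither the cell types nor the activity of the genes could be checked against marker levels.

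GATA factors are zinc finger proteins that bind short sites with the core GATA. GATA2 and GATA3 are best known from blood and lymphoid cells, and GATA4, GATA5 and GATA6 from heart and endoderm. HAND1, HAND2 and TAL1 are basic helix-loop-helix proteins, which pair with other such proteins on sites of the form CANNTG called E-boxes. HAND factors act in heart, limb and extraembryonic tissue, and TAL1 is a regulator of blood formation that works in complexes with GATA factors.

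Several of the contacts described below can be placed on sequence. The 250 bases before the annotated start of *Tal1* and of *Foxd2*, a forkhead gene, are shown because the fragments that carry these starts formed the pair with the highest score of any of the 8 genes. They lie on mm9 at chr4:114728781-114729030, plus strand, and chr4:114581504-114581753, minus strand, each read 5′ to 3′ towards its gene. Those of mouse *Hand1* (mm9, chr11:57645650-57645899, minus strand) and human *HAND1* (hg19, chr5:153857788-153858037, minus strand) are shown because *Hand1* had over 20 calls in each cell type. Capitals mark CANNTG and, on either strand, a GATA motif, that is AGATAA or its variant with G in the last place, or either of these with T in the first place.
Tal1, mouse: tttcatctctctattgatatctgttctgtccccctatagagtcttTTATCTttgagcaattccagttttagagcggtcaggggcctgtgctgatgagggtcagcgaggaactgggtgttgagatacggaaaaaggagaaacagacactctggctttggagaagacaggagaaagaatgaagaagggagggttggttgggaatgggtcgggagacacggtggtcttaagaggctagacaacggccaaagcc
Foxd2, mouse: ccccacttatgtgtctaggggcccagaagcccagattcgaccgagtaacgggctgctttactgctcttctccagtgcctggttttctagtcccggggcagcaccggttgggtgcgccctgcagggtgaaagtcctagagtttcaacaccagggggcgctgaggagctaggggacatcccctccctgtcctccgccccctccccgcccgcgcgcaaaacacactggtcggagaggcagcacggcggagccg
Hand1, mouse: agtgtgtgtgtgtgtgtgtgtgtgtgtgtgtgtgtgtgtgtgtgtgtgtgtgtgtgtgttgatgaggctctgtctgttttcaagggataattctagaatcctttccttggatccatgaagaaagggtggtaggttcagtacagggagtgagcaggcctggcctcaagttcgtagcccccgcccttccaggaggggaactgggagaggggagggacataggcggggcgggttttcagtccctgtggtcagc
HAND1, human: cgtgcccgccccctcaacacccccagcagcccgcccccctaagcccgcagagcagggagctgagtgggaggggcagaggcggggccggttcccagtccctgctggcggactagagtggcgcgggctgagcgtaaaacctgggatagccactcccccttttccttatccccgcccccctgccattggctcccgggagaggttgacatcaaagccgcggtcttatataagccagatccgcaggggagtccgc
*Tal1* held 1 GATA motif and no CANNTG in this stretch, and the other 3 stretches held neither. The human *HAND1* stretch had 16 CG dinucleotides against 4 in the mouse one, and *Foxd2* had 16 against 6 in *Tal1*. The human start is that of the canonical transcript, and the mouse starts are those of the lowest-numbered coding transcripts. The mouse and human *Hand1* stretches were not aligned. Their CG counts may come from unlike parts of the promoter and are not to be read as a species difference.

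A further stretch is shown because it lies in the fragment with the most reads among the *Gata2* calls, in a *Gata2* intron. This 8643-base fragment, chr6:88147728-88156370 on mm9, joined the *Gata2* bait with 102 reads. It holds 1 match to CATCTG followed after 8 bases by AGATAA, an E-box and a GATA motif side by side as bound by complexes of TAL1 and GATA factors, at chr6:88153179-88153198. The match stands 9.29 kb after the most upstream annotated *Gata2* start. The spacing was chosen after the sequence had been seen. On either strand, 73 of the 52640 listed mESC fragments, 0.139%, held it. This share is not adjusted for length, and longer fragments have more room for a match. The median unbaited fragment of the mESC calls had 3791 bases. The 100 bases around it, chr6:88153139-88153238 on the plus strand, have both motifs in capitals.
Gata2 intron, mouse: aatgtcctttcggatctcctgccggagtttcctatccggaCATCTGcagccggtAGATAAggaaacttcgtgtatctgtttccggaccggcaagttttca
Over windows from 250 bases before to 50 bases after the start, 3 of the 8 mouse genes (*Gata3*, *Hand2* and *Tal1*) held a GATA motif, beside 27.1% of 22232 mouse promoters. In human, 2 of 8 (*HAND2* and *TAL1*) did, beside 18.4% of 19826. CANNTG was held by 6 of 8 in each species, beside 69.2% and 63.8% of all promoters. At the starts used, mouse *Hand1* was the poorest of the 8 in CG dinucleotides, with 6, and mouse *Gata4* the richest, with 33, where the median promoter had 12. Human *GATA5* had 43 and *HAND2* 15, where the median was 23. These letter matches are descriptions of the sequence and not measured binding.

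By symbol, 7 of the 8 genes had at least 1 listed call in mESCs and 5 of 8 in GM12878, beside 63.5% and 66.4% of the annotated protein-coding genes. In mESCs *Tal1* had 51 calls, *Hand1* 23, *Gata6* 13, *Gata2* 12, *Hand2* 7, *Gata5* 6 and *Gata4* 3, and *Gata3* had none. In GM12878 *HAND1* had 36, *GATA4* 9, *TAL1* 8, *GATA3* 2 and *HAND2* 1, and *GATA2*, *GATA5* and *GATA6* had none. *Hand1* was thus the gene with over 20 calls in both lists, and *Tal1* had the most in mESCs only. As baits, *Tal1* had 40 calls in mESCs, a number reached by 179 of 16265 baits, and *HAND1* had 33 in GM12878, reached by 275 of 15389. These totals hold only baits with at least 1 listed call as bait, whose median was 3 calls in either cell type. Captured baits without a listed call are left out, here and in the shares of baits below.

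**Figure D1:**
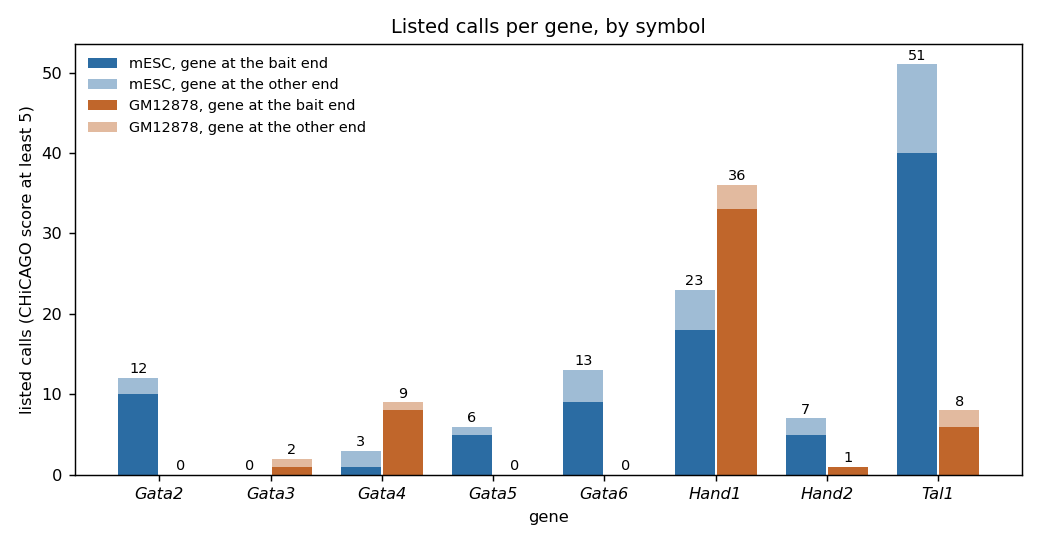
Listed calls (CHiCAGO score of at least 5) of each gene by symbol, in mESCs (blue) and GM12878 (orange), with calls that have the gene at the bait end in full colour and those with it at the other end in pale colour. *Tal1* reached 51 in mESCs and 8 in GM12878, and *Hand1* 23 and 36.

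The bait listed under a gene did not always hold its main start. By main start is meant that of the canonical transcript in human and of the lowest-numbered coding transcript in mouse. The mouse choice goes by transcript name and not by use of the promoter. The mESC bait named *Gata2* (chr6:88137173-88146476) holds the upstream start of the gene, and the start of its other coding transcript lies in the fragment with the motif pair shown above, which was not listed as a bait. The mESC bait named *Gata4* (chr14:63890441-63896724) holds the most upstream of 6 annotated starts, and the fragment of the main coding transcript had no listed call. In GM12878 *GATA4* was likewise baited at an upstream start. No listed call fell on any fragment with an annotated start of human *GATA2*, *GATA5* or *GATA6*.

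In mESCs the *cis*-chromosomal calls of the 8 genes had a median distance of 250 kb between fragment midpoints (95% interval from order statistics 214 to 320 kb), beside 139 kb over all calls and 215 kb over those with another developmental transcription factor. In GM12878 the median was 173 kb (106 to 309 kb) beside 174 and 271 kb. Of the mESC calls, 17 of 115 (14.8%, Wilson 95% interval 9.44 to 22.4%) spanned over 1 Mb, beside 3.37% of all calls and 22.2% of the 4641 calls with another developmental transcription factor. They came from 3 of 7 baits (*Gata2*, *Gata6* and *Tal1*), where 7.75% of the mESC baits with any listed call had one over 1 Mb. All 17 rested on fewer than 10 reads. In GM12878 none of the 56 calls spanned over 1 Mb (interval 0 to 6.42%), beside 1.64% of all calls and 4.29% of baits with any listed call. The intervals cover counting error only, and calls to neighbouring fragments are not independent. No *trans*-chromosomal call of any of the 8 genes was listed, where 2.03% of mESC and 0.253% of GM12878 baits with any listed call had one. No call joined 2 of the 8 genes.

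Bait-to-bait calls made up 49 of 115 in mESCs (42.6%, 34.0 to 51.7%), beside 36.3% of all calls and 42.3% of those with another developmental transcription factor. In GM12878 they made up 18 of 56 (32.1%, 21.4 to 45.2%), beside 29.4% and 36.8%. At least 1 protein-coding start lay between the fragments in 84 of 99 mESC pairs (84.8%, 76.5 to 90.6%) and in 24 of 54 GM12878 pairs (44.4%, 32.0 to 57.6%), beside 74.7% and 73.2% of all *cis*-chromosomal pairs. For the 8 genes, the main start of the gene itself was not counted, while the shares over all pairs count every main start. The *TAL1* pairs to fragments 45.7 and 64.5 kb upstream pass over the main *TAL1* start and are thus not among the 24. *HAND1* gave 36 of the 54 GM12878 pairs, and 16 of these passed over a coding start.

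**Figure D2:**
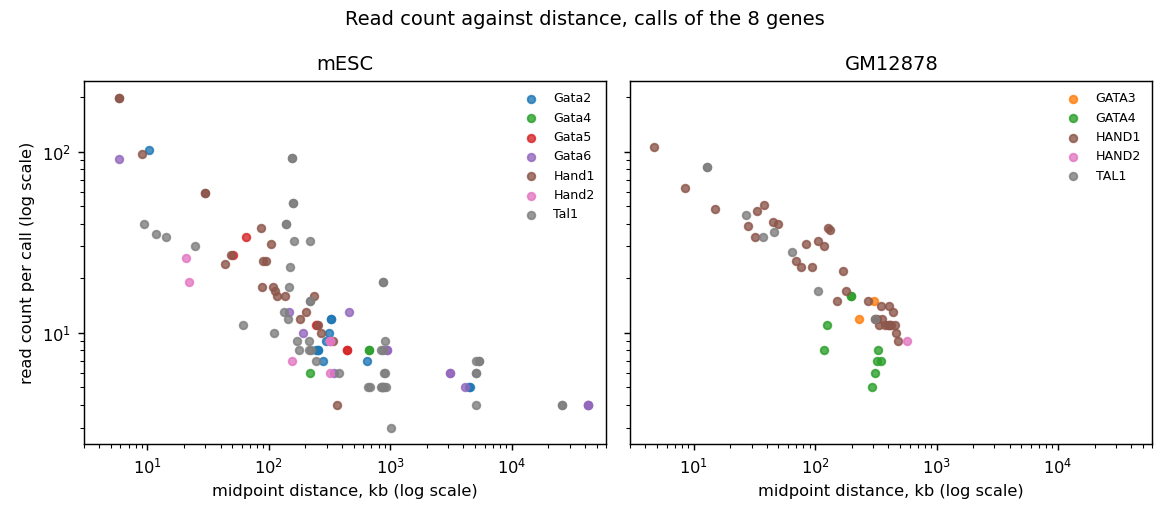
Read count of each call of the 8 genes against midpoint distance, both on log scales, in mESCs (left) and GM12878 (right), coloured by gene. Read counts fell with distance in both panels, the *Tal1* calls to *Foxd2* stood at 92 reads at 155 kb, and GM12878 had no call beyond 569 kb.

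*Tal1* had the highest scores of the 8 genes in mESCs. Its bait (chr4:114728767-114741851, mm9) carries all 4 annotated starts of the gene. The 44 pairs lay in separate blocks, with the highest scores 111 to 243 kb upstream, where 17 fragments were called. The fragment of *Foxd2*, 155 kb away, was called with 92 reads at a score of 90.13 from *Tal1* and 78.81 from *Foxd2*. Only 76 of the 101841 mESC calls, 0.0746%, scored at least as high as the first. Its neighbour 158 kb away, listed as 9130410C08Rik, had 52 reads and scores of 45.99 and 48.58 from the 2 baits. An unbaited fragment 220 kb upstream had 32 reads and a score of 39.25, and the one that holds *Foxe3*, another forkhead gene, had 40 reads and scores of 30.80 and 23.65 at 139 kb. The other baits of this block, U1.148 at 217 kb (scores 12.36 and 10.31) and Gm12830 at 243 kb (7.54), had lower scores. Both forkhead genes belong to the list of developmental transcription factors.

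A second block of *Tal1* contacts stood downstream, with 12 fragments called between 837 and 917 kb. *Dmbx1*, a homeobox gene of the developing brain, had the highest score of this block, 29.84 from *Tal1* and 29.68 from *Dmbx1*, on 19 reads at 878 kb. The *Dmbx1* bait holds an annotated start of the gene, but its midpoint lay 15.4 kb from the main *Dmbx1* start. Unbaited fragments with midpoints 2.33 and 2.01 kb from that main start had scores of 5.72 and 5.60. The other fragments there had 5 to 9 reads and scores of 5.60 to 13.89. In the same direction, *Uqcrh*, which encodes a subunit of the respiratory chain, was joined at 1.01 Mb with 3 reads and a score of 6.42.

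Beyond 1 Mb, *Tal1* was joined to fragments 5.08 to 5.40 Mb upstream. These were *Cdkn2c*, which encodes a cyclin-dependent kinase inhibitor, with 7 reads and scores of 14.86 and 11.37, and the bait listed as 3010003L10Rik with 6 reads and scores of 11.61 and 9.90. The latter fragment also carries an annotated start of *Dmrta2*, a transcription factor gene, and an unbaited fragment beside it had 7 reads and a score of 17.95. The longest calls reached 2 adjacent fragments 25.8 Mb away, each with 4 reads and scores of 9.98 and 9.86, whose nearest coding start was that of *Cdkn2a*. The far calls at 5 Mb thus had 4 to 7 reads and scores of 6.61 to 17.95, while the calls within 100 kb had 11 to 40 reads and scores of 5.04 to 6.94. The near calls included *Pdzk1ip1* and *Stil*, the direct neighbours of *Tal1* on either side.

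The baited partners of *Tal1* were also joined to each other. Among its 12 baited partner fragments, 36 of 66 possible pairs (54.5%) were themselves listed, beside 40.0% over the 1385 mESC baits with at least 10 baited partners. Among partners over 1 Mb from each other it was 15 of 33, beside 20.7%, and among those under 100 kb apart 10 of 13, beside 58.2%. The pairs overlap in their fragments, so these shares are descriptions. The listed pairs included *Foxd2* with *Foxe3*, *Dmbx1*, *Stil* and *Cdkn2c*. The baits whose called fragments were most like those of *Tal1* were *Foxe3*, with 27 fragments in common (Jaccard index 0.386), *Foxd2* with 28 (0.378) and 9130410C08Rik with 22 (0.338). Of the 12 bait-to-bait pairs of *Tal1*, 7 were called from both ends, beside 26.2% of all such mESC pairs.

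In GM12878 *TAL1* stood on 2 baits, which were joined to each other by 82 reads with scores of 20.24 and 6.21 by end. The bait with the main start (chr1:47693536-47713342, hg19) had no other listed contact. All contacts that follow belong to the other bait (chr1:47687948-47692986), which holds 1 further *TAL1* start and is also listed under RP1-18D14.7. Its highest score, 21.52 on 34 reads, was to *PDZK1IP1*, a neighbour 37.5 kb away that encodes a membrane-associated protein. *CMPK1*, a nucleotide kinase gene, was joined with 17 reads and a score of 6.15 at 106 kb. Unbaited fragments that overlap exons of *STIL*, 45.7 and 64.5 kb upstream, had scores of 6.41 and 5.24. The longest call, at 309 kb, had 12 reads and a score of 5.03. *PDZK1IP1* was the only partner symbol that *Tal1* had in both cell types, of 12 in mESCs and 3 in GM12878. No listed GM12878 call joined *TAL1* to *FOXD2*, *FOXE3* or *DMBX1*.

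**Figure D3:**
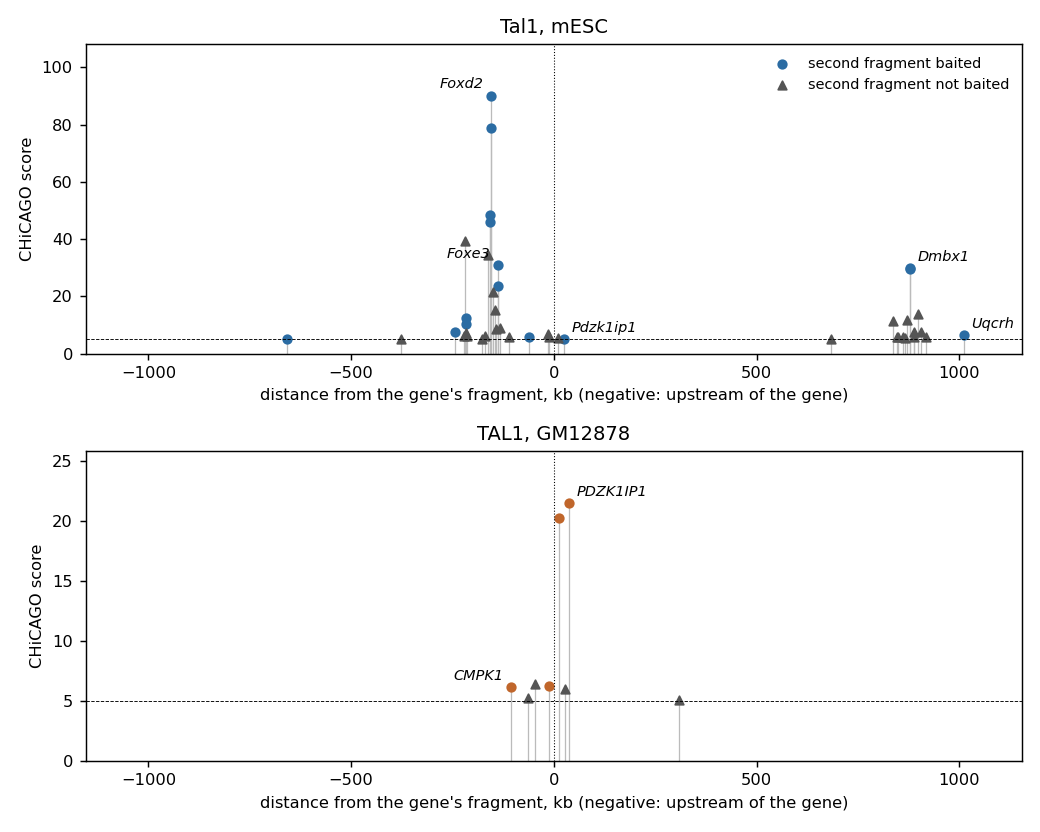
CHiCAGO score of each *Tal1* call up to the distance of *Uqcrh* against the distance of its second fragment from that of *Tal1*, in kb along the direction of the gene, in mESCs (top) and GM12878 (bottom), with circles for baited and triangles for unbaited second fragments and a dashed line at the list's minimum score of 5. The mESC calls formed blocks near *Foxd2* (score 90.13) and *Dmbx1* (29.84), and the GM12878 calls lay within 309 kb, the highest at 21.52.

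*Hand1* had its contacts mainly on one side in both species, upstream of the gene and towards *Larp1* and *Cnot8*. In mESCs 18 of 21 pairs lay upstream and in GM12878 28 of 36. In mESCs its bait (chr11:57643190-57646712) was joined to the nearby Gm11003 bait by 199 reads, the most of any of the 8 genes, with a score of 28.13 from Gm11003 and only 8.07 from *Hand1*. The next scores were to unbaited fragments upstream, 18.55 on 38 reads at 85.6 kb and 15.54 on 31 reads at 104 kb. Fragments were called at intervals from there to 253 kb, past the *Larp1* start. The longest call was to *Igtp*, which encodes an interferon-induced GTPase, at 367 kb with 4 reads and a score of 7.41.

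In GM12878 the *HAND1* bait (chr5:153854715-153861547, hg19) had its highest scores at adjacent fragments 129 and 133 kb upstream, 20.06 on 38 reads and 19.69 on 37. Another fragment 105 kb upstream scored 13.59 on 32 reads. Of its 36 pairs, 32 had an unbaited second fragment, and 16 of these held no annotated gene. The longest call, at 483 kb downstream, had 9 reads and a score of 5.01.

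*Hand1* shared 3 partners between the cell types, of 5 partner symbols in mESCs and 7 in GM12878. *Sap30l*, which encodes a protein of histone deacetylase complexes, was joined at 29.7 kb by 59 reads (scores 10.31 and 7.83) in mESCs and at 33.3 kb by 47 reads (10.56) in GM12878. *Cnot8*, a subunit gene of the CCR4-NOT deadenylase, was joined by 10 reads at 270 kb (5.92) in mESCs and by 11 reads at 375 kb (7.04) in GM12878. The human *CNOT8* bait is also listed under *FAXDC2* and that of *SAP30L* under SAP30L-AS1, so neither contact can be assigned to a single gene. *Gemin5*, of the SMN complex, was joined by 9 reads at 336 kb (5.61) and by 11 reads at 459 kb (5.33). In all 3 the *Hand1* contact was thus listed at a longer distance in the human cells. In both cell types the bait of *Sap30l* was among the most alike in called fragments, with a Jaccard index of 0.143 in mESCs and 0.105 in GM12878. Gm11003 (0.150) and *Cnot8* (0.136) in mESCs and *FAM114A2* with *MFAP3* (0.0789) in GM12878 were the others.

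**Figure D4:**
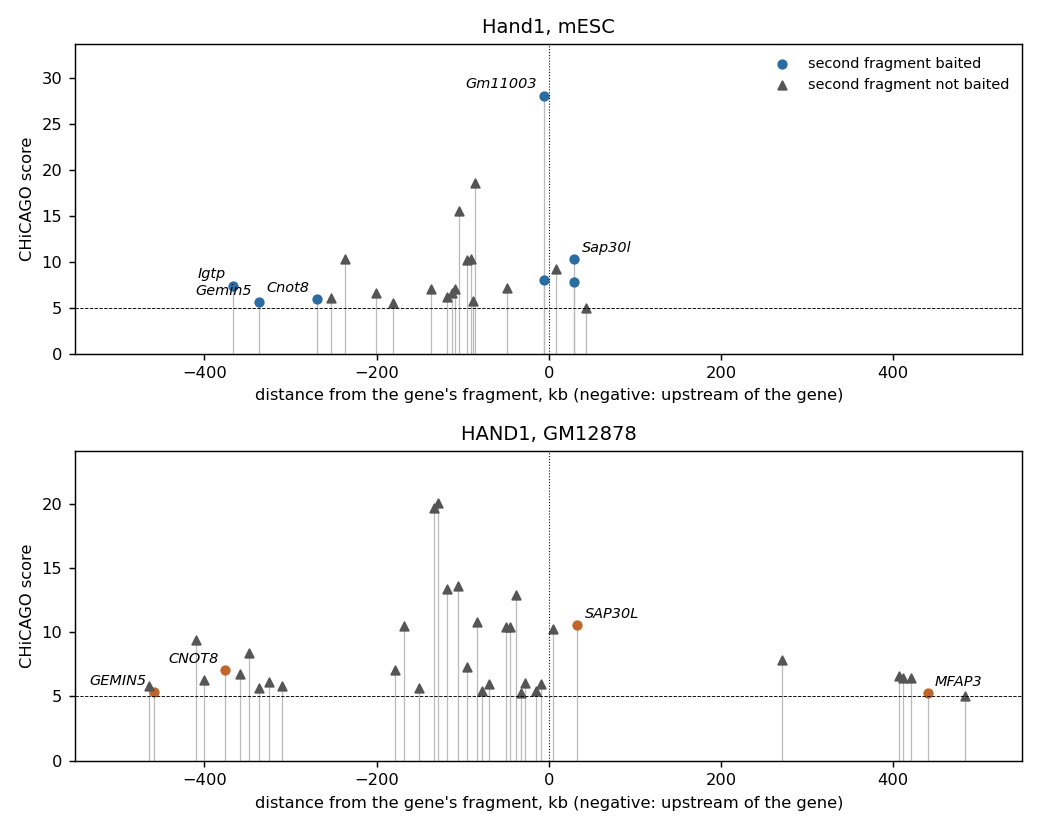
CHiCAGO score of each *Hand1* call against the distance of its second fragment from that of *Hand1*, in kb along the direction of the gene, in mESCs (top) and GM12878 (bottom), with circles for baited and triangles for unbaited second fragments and a dashed line at a score of 5. Upstream fragments in mESCs (18.55 at 85.6 kb) and in GM12878 (20.06 at 129 kb) stood above their surroundings, and *Sap30l* lay downstream in both.

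*Hand2* had 6 pairs in mESCs, with *Galnt7* at the top. *Galnt7*, which encodes a glycosyltransferase, was joined at 320 kb by 9 reads, with scores of 12.41 and 7.64, and the fragment beside it had 9 reads and a score of 9.96. A fragment 20.8 kb downstream had 26 reads and a score of 8.75, and *Sap30*, a paralogue of the *Hand1* partner *Sap30l*, had 7 reads and a score of 5.22 at 154 kb. In GM12878 the single *HAND2* call reached an unbaited fragment 569 kb upstream, overlapping an exon of the noncoding gene LINC02268, with 9 reads and a score of 7.64. Its bait is also listed under HAND2-AS1, so the contact cannot be assigned to *HAND2* alone.

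Of the GATA genes, *Gata2* was joined in mESCs to genes downstream and to 2 far fragments upstream. Beside the intragenic fragment shown above, with a score of 23.55, the next scores were 9.47 and 9.46 on 5 reads each, at 2 adjacent fragments 4.49 Mb away. Both lie in Vax2os1, next to the homeobox gene *Vax2*. Downstream, *Eefsec*, a translation factor for selenocysteine, was joined at 253 kb (8 reads, score 7.81), *Sec61a1*, of the protein channel of the endoplasmic reticulum, at 327 kb (12 reads, 8.07 and 5.20) and *Abtb1* at 649 kb (7 reads, 5.19). These 3 baits were all listed with each other, and *Eefsec* was the bait most like *Gata2*, with 3 fragments in common (Jaccard index 0.214), followed by *Podxl2* (0.167) and *Abtb1* (0.143). The intragenic fragment was itself called from 7 baits, among them *Sec61a1* with 16 reads and a score of 12.69, *Podxl2* with 8 reads and 8.79, *Ruvbl1* with 9 reads and 7.88 and *Mgll* with 11 reads and 7.68.

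*Gata4* was joined in mESCs to *Sox7*, a gene for a factor of endoderm and endothelium, at 668 kb by 8 reads, with scores of 6.17 and 5.28. The only other *Gata4* partner was the bait listed as Gm17232, at 220 kb with 6 reads and a score of 6.74, on a fragment that also holds a start of *Tdh*, the threonine dehydrogenase gene. In GM12878 all 8 *GATA4* pairs were bait-to-bait. *FAM167A* led with 16 reads at 199 kb and scores of 15.99 and 5.34 by end, followed by *TDH* with 8 reads and a score of 10.51 at 330 kb and the noncoding RP11-148O21.3 with 11 reads and 8.55 at 125 kb. A bait listed under *BLK*, a tyrosine kinase gene of B cells, was joined by 8 reads at 119 kb with a score of 6.17. It is also listed under RP11-148O21.2 and RP11-148O21.4, and its midpoint lay 64.4 kb from the main *BLK* start. The contact thus cannot be assigned to *BLK* alone. *SLC35G5*, the farthest, was joined by 7 reads at 348 kb with a score of 7.63. The defensin genes lay on the other side, *DEFB134* with 7 reads and a score of 7.81 and *DEFB136* with 5 reads and 5.00. A further 4 calls fell on the unbaited fragment of the main *GATA4* start, the highest from *FAM167A* with 18 reads and a score of 12.09. By called fragments, *CTSB* was the bait most like *GATA4*, with 3 in common (Jaccard index 0.300). A different *BLK* bait and the bait of *C8orf49* and *NEIL2* followed (0.273 each).

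*Gata5* had 5 pairs in mESCs, each to another bait. *Cables2* stood at 64.5 kb with 34 reads and a score of 11.23, BC066135 at 50.3 kb with 27 reads and 7.45, and 1600027N09Rik at 244 kb with 11 reads and 5.97. The farthest was *Bhlhe23*, itself a basic helix-loop-helix gene, at 438 kb with 8 reads and scores of 5.32 and 5.31. Of the 10 possible pairs among the 5 partners, 6 were listed, beside 38.7% over all mESC baits. The baits most like it were *Rps21* (Jaccard index 0.231) and *Bhlhe23* (0.200).

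*Gata6* had the farthest contact of the 8 genes. It was joined to *Prdm6*, a gene of the PR domain family, at 42.6 Mb by 4 reads, with scores of 7.23 and 6.97 by end, and to the fragment just beyond it with 4 reads and a score of 9.01. *Zfp521*, a zinc finger gene, was joined at 3.08 Mb by 6 reads, with scores of 7.43 and 7.36. The highest score, 12.90 on 13 reads, belonged to an unbaited fragment 456 kb downstream in a region without genes, whose nearest coding start lay 306 kb from it. *Cables1*, a paralogue of the *Gata5* partner *Cables2*, came next with 8 reads at 947 kb and scores of 10.15 and 6.54. Of its 13 calls, 6 spanned over 1 Mb. Its 4 baited partners, all over 1 Mb from each other, had none of their 6 possible pairs listed, beside 19.2% of such pairs over all mESC baits.

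*Gata3* had no mESC call by symbol, but the 3 fragments that hold its annotated starts were baits listed under other names: Gm13256 (chr2:9794098-9799693, mm9), 4930412O13Rik (chr2:9799694-9806584) and 9230102O04Rik (chr2:9808071-9816915). The middle one holds the start of the main coding transcript. Since these baits carry starts of other genes too, their contacts cannot be assigned to *Gata3* alone. The 3 fragments had 46 listed calls in 34 pairs, 2 of which joined the fragments to each other. This look-up by position was added after the symbol search had come out empty.

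The strongest of these contacts was to *Sfmbt2*, a Polycomb group gene 482 to 498 kb away. It was joined to 9230102O04Rik by 54 reads (scores 65.65 and 55.74), to 4930412O13Rik by 43 reads (52.12 and 50.37) and to Gm13256 by 21 reads (34.06 and 21.16). Only 153 mESC calls, 0.150%, scored at least as high as the first. A far block followed between 8.14 and 8.80 Mb, with 12 pairs to 8 fragments. There 2810030E01Rik had 8 reads and scores of 26.18 and 16.22 with 9230102O04Rik, Gm13330 was called from all 3, and *Bmi1*, which encodes another Polycomb protein, had 5 reads and scores of 10.52 and 8.76 with 4930412O13Rik. The longest call reached *Lhx2*, a LIM homeobox gene on the list of developmental transcription factors, at 28.4 Mb with 4 reads and scores of 10.29 and 7.29.

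**Figure D5:**
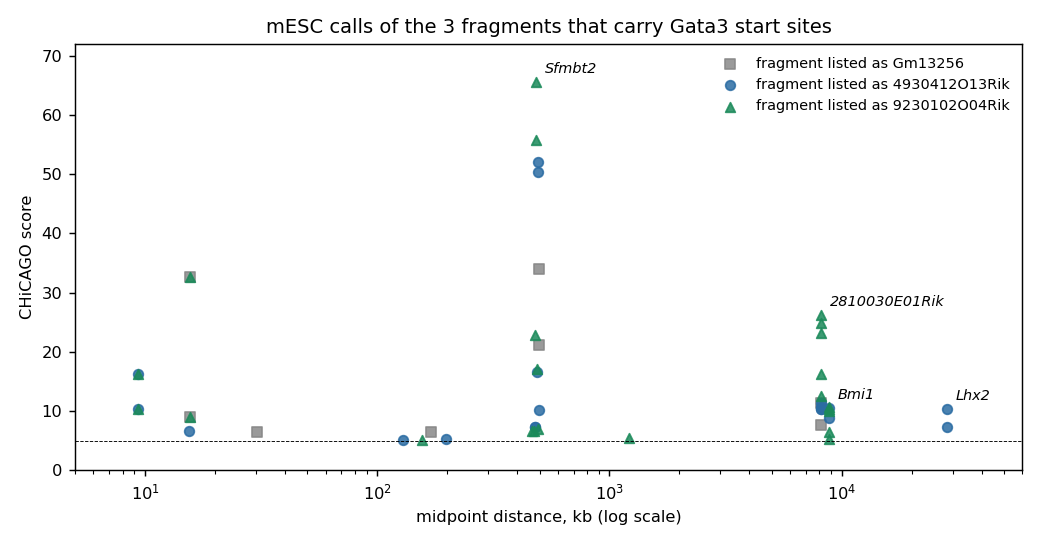
CHiCAGO score against midpoint distance (log scale) for each mESC call of the 3 fragments that carry annotated *Gata3* starts, with a marker for each fragment and a dashed line at a score of 5. The scores peaked at *Sfmbt2* (65.65 at 482 kb), with a further group of calls near 8.1 to 8.8 Mb and *Lhx2* at 28.4 Mb.

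In GM12878, where the *GATA3* bait (chr10:8081682-8103205, hg19) carries all 5 annotated starts, 2 calls were listed. This bait is also listed under GATA3-AS1, RP11-379F12.3 and RP11-379F12.4, so its contacts cannot be assigned to *GATA3* alone. *TAF3*, which encodes a subunit of the general transcription factor TFIID, was joined 232 kb upstream by 12 reads with a score of 19.07. The other call reached an unbaited fragment 309 kb downstream with 15 reads and a score of 5.17. *Taf3* was also joined in mESCs to 2 of the baits with *Gata3* starts, by 9 reads at 171 kb (6.42, Gm13256) and 15 reads at 155 kb (5.08, 9230102O04Rik). Of the 13 symbols called with those baits, which include the baits themselves, it was the only one that was also a partner of human *GATA3*.

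By symbol, the mESC partners on the list of developmental transcription factors were *Foxd2* and *Foxe3* for *Tal1* and *Sox7* for *Gata4*, 6 of 115 calls. Each of these 3 pairs was called from both ends. With one of the 8 genes at the bait end, 3 of 88 calls had such a gene at the other end (3.41%, 1.17 to 9.55%), beside 1.28% of all mESC calls. With one of the 8 at the other end, 3 of 27 had such a gene as the bait (11.1%, 3.85 to 28.1%), beside 3.68%. All 27 are bait-to-bait, as a named other end counts as a bait, while 36.3% of all mESC calls are. The 3.68% is thus not over a like set, and the share over bait-to-bait calls alone was not computed. In the first case the lower bound of the interval lay under 1.28%, and each share rests on 3 calls. Counted by bait, 2 of 7 reached one, beside 4.79% of the mESC baits with any listed call. In GM12878 none of the 5 genes did, beside 1.75% of baits with any listed call. *Dmbx1*, *Bhlhe23*, *Zfp521* and *Prdm6* also encode DNA-binding or chromatin factors but were not on the list. None of the genes on the lists of developmental signalling (58 with a call in mESCs) or of haematopoietic partners of GATA and TAL1 factors (24) was a partner in mESCs, and *Sox7* was the only one from the list of cardiac and endoderm partners (20). In GM12878 none of the listed 61, 25 and 16 was. Genes of the cardiac and endoderm list stood at the other end of 0.052% of all mESC calls and 0.014% of all GM12878 calls. The *Sox7* calls, 2 of 115, were 1 pair, too few to set against that share. Genes of the first pair of lists stood at the other end of 0.244% and 0.0894% of all mESC calls and 0.0904% and 0.0355% of all GM12878 calls, so that their absence among 115 and 56 calls is near the background.

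In sequence, the unbaited fragments called for the 8 genes were set beside those of all calls. Their median GC content was 47.7% over 66 mESC fragments and 45.6% over 38 GM12878 fragments, beside 45.9% and 42.9%. They held 1.71 and 1.95 GATA motifs per kb, beside 1.95 and 2.02, and 5.68 and 5.80 E-boxes per kb, beside 5.92 and 5.53.

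The mESC calls were set beside Hi-C of the same cell type. Of the 98 calls of the 8 genes under 1 Mb, 22 (22.4%, 15.3 to 31.7%) fell in a pair of 25-kb bins with an FDR under 0.05, beside 11.6% of all calls under 1 Mb and 47.0% of those with another developmental transcription factor. At an FDR under 0.01 the share was 10 of 98 (10.2%), beside 9.56% of all calls. At 0.05 they were 14 of 42 *Tal1* calls, 7 of 23 *Hand1* calls and 1 of 6 *Gata5* calls, in 5 bin pairs in all. The bins of *Tal1* and *Foxd2* were joined by 27 read pairs where 8.82 were expected. Their FDR was 0.0399, so this pair was lost at an FDR under 0.01. Those of *Tal1* and the fragment 220 kb upstream were joined by 28 where 8.02 were expected (FDR 0.00329). For *Gata5* and *Cables2* there were 35 against 10.7 (FDR 0.000383). Of the 7 *Hand1* calls, 3 joined fragments under 10 kb apart and fell in 1 bin pair, which cannot tell these contacts from their surroundings. Neither *Dmbx1* nor *Sox7* lay in such a bin pair with its partner. Of the 17 calls over 1 Mb, 13 (76.5%, 52.7 to 90.4%) fell in a pair of 1-Mb bins, beside 59.4% of all mESC calls over 1 Mb and 53.1% of those with another developmental transcription factor. The 13 calls shared 4 bin pairs, so they are not independent. These were 8 of 9 *Tal1* calls, both far *Gata2* calls and 3 of 6 *Gata6* calls. The 1-Mb bins of *Tal1* and *Cdkn2c* had 752 read pairs against 269 expected, and those of *Gata6* and *Prdm6* 99 against 60.4. Bins of either size hold other fragments, so they do not resolve the called ones.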

How the data were processed

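The 8 genes, the gene lists and the reading of their contacts were chosen with earlier results of these data known. Per the labels and methods, the authors mapped Promoter CHi-C reads with HiCUP (Bowtie 1.1.0) to hg19 or mm9, ran CHiCAGO on all replicates of a cell type together and listed calls with a score of at least 5. The deposited score is CHiCAGO's, and the deposited read count is the authors' rounded, weighted mean over replicates, not a raw count. For Hi-C, the authors deposited the count of read pairs per bin pair, the expected signal computed by HOMER (4.7, per the submitters' processing notes) and an adjusted p-value (FDR), of which bin pairs under 0.05 were kept.

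Symbols were split at semicolons, commas and vertical bars, and suffixes such as -201 were removed. Distances were taken between fragment midpoints. A call matched Hi-C when its midpoints fell in the 2 bins. Cutting hg19 and mm9 at AAGCTT gave 100% of the listed fragments. Start sites, exons and introns were those of GENCODE annotations of the same builds. Shares have Wilson 95% intervals. No test was run, since each cell type has 1 list. The depth per replicate was not used here, and the number of calls sets the precision. The genes named are the 3 highest-scoring fragments, the longest call and the listed partners of each gene, the partners shared by both cell types and the 3 most alike baits (Jaccard index, at least 3 shared fragments). The scripts (Python 3.11.15, numpy 2.4.6) were tested on simulated data. Alternatives were a score or read count of at least 10, the browser list, each pair once, the gene at the bait end, nearest ends, a Hi-C FDR under 0.01 and genes found by start site.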

Additional observations from a re-analysis of the deposited data

How the results depend on the processing

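No paired analysis was possible because each cell type has 1 list made from all its replicates. At a score of at least 10, 33 mESC calls (27 pairs) and 16 GM12878 calls (16 pairs) were left, with median distances of 162 and 94.6 kb. In mESCs *Tal1* then had 21 calls, *Hand1* 7, *Gata6* 2, *Gata2*, *Gata5* and *Hand2* 1 each and *Gata4* 0. The shares of mESC calls became 54.5% bait-to-bait, 12.1% to a developmental transcription factor and 51.7% in a Hi-C bin pair. Of the alternatives in this section, only the Hi-C FDR under 0.01 was also applied to all mESC calls. The other shares have no like background, since those over all calls given earlier hold for a score of at least 5. In GM12878 *HAND1* then had 11 calls, *GATA4* and *TAL1* 2 each, *GATA3* 1 and *HAND2* 0.

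At 10 reads or more, 57 mESC calls (49 pairs) were left, with a median distance of 137 kb, 0% over 1 Mb and 33.3% in a Hi-C bin pair. *Tal1* then had 22 calls, *Gata2* and *Gata6* 4 each, *Hand2* 2 and *Gata4* 0, and in GM12878 *GATA4* had 3 and *HAND2* 0. The mESC bait-to-bait share was 33.3% with the browser list or with each pair once and 25% with the gene at the bait end, where *Gata4* in mESCs and *GATA3* in GM12878 had 1 call each. At a Hi-C FDR under 0.01 the mESC share in a bin pair was 10.2%. With genes found by annotated start site as well, an alternative added after seeing the data, *Gata3* had 46 mESC calls and *GATA4* 14 GM12878 calls, the mESC median distance was 327 kb and the share over 1 Mb 22.8%. The other 132 values stayed within 1.5 times the count reported or within the interval of the share or median.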
